A study of Mus musculus with 2 samples.

Results

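The MX, IFIT and other antiviral effectors were 10 interferon-induced mouse genes, Mx1, Mx2, Ifit1, Ifit2, Ifit3, Rsad2, Bst2, Ifitm3, Isg20 and Ifi44, chosen by name from the gene names in the array files. They were read by 17 of 41171 non-control probes: 4 genes had 1 probe, 5 had 2 probes and Rsad2 had 3 probes. Their RNA was measured in RAW 264.7, a macrophage-like line from a BALB/c mouse tumour that can turn into osteoclast-like cells under the cytokine RANKL. The control array held RNA of RAW 264.7 cells kept at ground level, and the RCCS array RNA of the same line from a rotary cell culture system, a rotating vessel used to model microgravity. The protocol gives 24 h in the vessel and RANKL at 80 ng/ml for 24 h. Both samples carry 1 protocol text, which does not settle whether the control cells also received RANKL. Each group was 1 array, so no difference has a replicate check or a p-value, and the number of arrays limits the precision.

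Type I interferons act through a receptor and the kinases JAK1 and TYK2 on transcription factors that bind a DNA element of paired GAAA repeats, the interferon-stimulated response element. The proteins made in response block different steps of a virus's life. IFITM3 acts at membrane fusion during entry, the MX GTPases on incoming viral particles, IFIT1 on viral RNA that lacks the host cap methylation, viperin (the product of Rsad2) on RNA synthesis, ISG20 as an exonuclease, and tetherin (the product of Bst2) on the release of budded particles. Macrophages can keep such genes switched on at a low level without infection.

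The promoters of the members in which the paired repeat was found are shown first, because it is the element through which interferon is known to act; it was not found in every member. Each window runs from 250 bases before to 50 bases after the annotated start, 5′ to 3′ on the strand of the gene, from RefSeq (build GRCm38.p6). Capitals mark the repeat GAAA, any 2 bases, GAAA, on either strand (read on the other strand as TTTC, any 2 bases, TTTC), except in Ifi44, where 3 bases lie between.

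Ifit1 (chr19:34640639-34640938, plus strand): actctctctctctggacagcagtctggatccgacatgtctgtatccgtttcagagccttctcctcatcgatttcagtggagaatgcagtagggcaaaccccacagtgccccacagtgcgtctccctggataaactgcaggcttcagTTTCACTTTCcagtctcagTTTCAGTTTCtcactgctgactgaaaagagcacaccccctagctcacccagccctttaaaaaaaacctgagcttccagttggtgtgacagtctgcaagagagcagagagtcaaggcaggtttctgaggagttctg
Ifit3 (chr19:34583279-34583578, plus strand): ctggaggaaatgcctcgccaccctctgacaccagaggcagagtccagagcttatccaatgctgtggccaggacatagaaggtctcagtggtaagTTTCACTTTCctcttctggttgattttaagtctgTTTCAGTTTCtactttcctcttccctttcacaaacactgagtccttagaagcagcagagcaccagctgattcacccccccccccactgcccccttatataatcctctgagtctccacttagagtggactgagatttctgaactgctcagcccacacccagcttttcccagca
Bst2 (chr8:71537423-71537722, minus strand): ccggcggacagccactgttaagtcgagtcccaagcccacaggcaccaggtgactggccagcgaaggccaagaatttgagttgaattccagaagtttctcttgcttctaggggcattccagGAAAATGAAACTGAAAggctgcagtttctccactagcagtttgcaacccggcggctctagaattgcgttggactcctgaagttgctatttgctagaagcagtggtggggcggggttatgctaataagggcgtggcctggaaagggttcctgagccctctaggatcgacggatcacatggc
Rsad2 (chr12:26456403-26456702, minus strand): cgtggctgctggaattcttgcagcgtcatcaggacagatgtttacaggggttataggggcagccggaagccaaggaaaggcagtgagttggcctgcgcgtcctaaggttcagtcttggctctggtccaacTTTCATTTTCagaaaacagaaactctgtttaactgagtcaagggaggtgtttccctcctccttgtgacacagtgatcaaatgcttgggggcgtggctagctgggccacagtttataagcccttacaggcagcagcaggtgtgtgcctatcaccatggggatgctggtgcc
Ifitm3 (chr7:141010695-141010994, minus strand): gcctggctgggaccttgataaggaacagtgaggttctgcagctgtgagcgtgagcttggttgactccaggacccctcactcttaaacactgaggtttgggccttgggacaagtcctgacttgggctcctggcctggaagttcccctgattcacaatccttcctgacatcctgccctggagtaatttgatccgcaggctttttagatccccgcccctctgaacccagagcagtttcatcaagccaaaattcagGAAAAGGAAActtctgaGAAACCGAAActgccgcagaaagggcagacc
Ifi44 (chr3:151749861-151750160, minus strand): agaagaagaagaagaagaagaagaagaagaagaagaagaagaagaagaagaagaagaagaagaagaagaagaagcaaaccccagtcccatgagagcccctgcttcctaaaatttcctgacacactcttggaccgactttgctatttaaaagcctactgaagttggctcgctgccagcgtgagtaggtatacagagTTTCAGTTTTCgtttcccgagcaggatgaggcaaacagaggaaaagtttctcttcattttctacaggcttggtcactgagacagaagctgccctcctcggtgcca

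The RefSeq promoter table held 8 of the 10 members; Mx1 and Mx2 were not among them. The repeat with 2 bases between was present in 5 of these 8 genes (62.5%), against 1079 of 27025 genes in the table (3.99%) and 1131 of 32851 windows (3.44%). Ifit1 carried it at -104 to -95 and again at -85 to -76 from the start, and Ifit3 at -156 to -147 and at -122 to -113. In Bst2 a pair of matches overlapped, at -130 to -121 and at -124 to -115. Rsad2 had 1 match, at -120 to -111. In Ifitm3 both matches lay after the annotated start, at 3 to 12 and at 20 to 29. With 3 bases between (a form searched after the data had been seen), Ifi44 had a match at -55 to -45, Rsad2 at -109 to -99 and Ifit3 at -116 to -106, the last overlapping its match with 2 bases between; 2.75% of all windows held this form. Neither form was found in the 3 windows of Isg20 or the 2 windows of Ifit2, which says only that these letters are not in those windows. Among measured genes other than the members, 41 of 381 (10.8%) that held the repeat with 2 bases between had RCCS signals lower by 2-fold or more, against 312 of 9605 (3.25%) that lacked it. At least 2-fold higher were 23 of the first group (6.04%) and 374 of the second (3.89%). The median log2 ratios, RCCS minus control, were close, -0.20 in the first group and -0.13 in the second. Both groups were free of the members but not of the other interferon genes listed below. For the form with 3 bases between, the lower shares were close, 10 of 272 (3.68%) with it and 343 of 9714 (3.53%) without. A match is a run of letters and not a measured binding site.

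**Figure D1:**
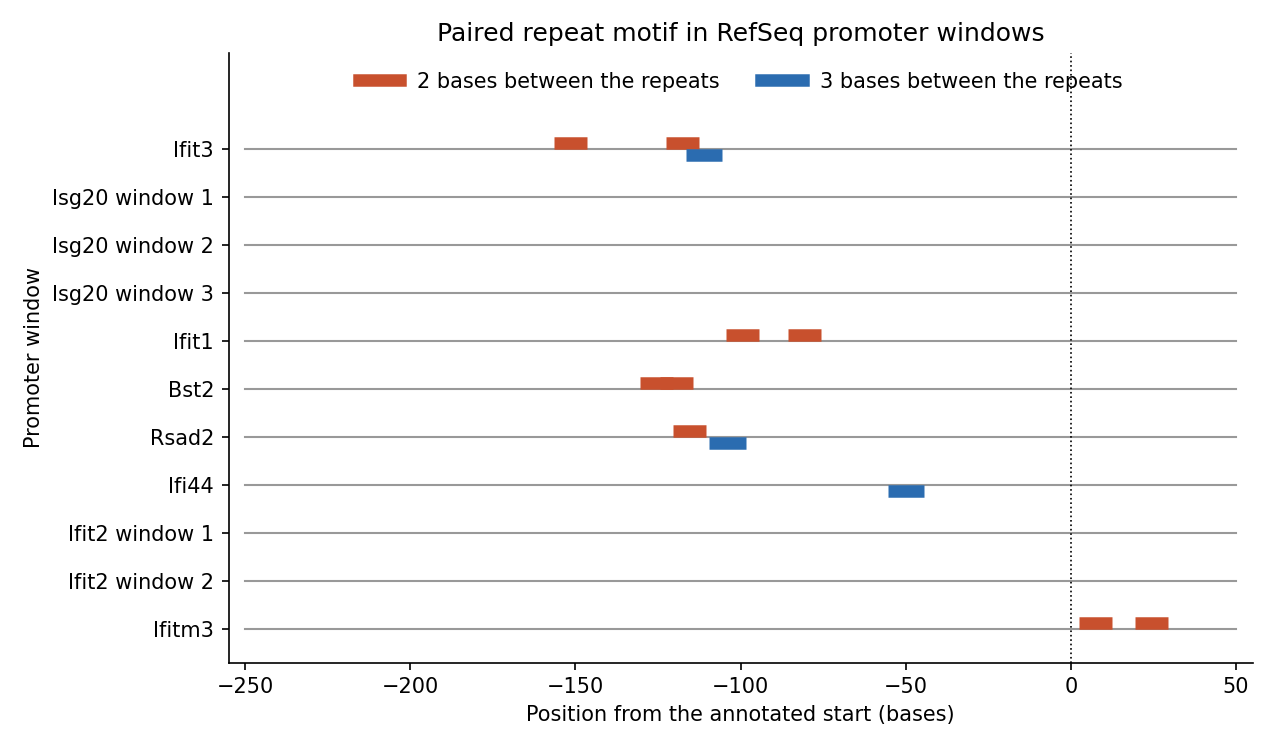
Positions of the paired GAAA repeat in the RefSeq promoter windows of 8 members, in bases from the annotated start (x axis), 1 line per window. Orange bars mark repeats with 2 bases between and blue bars repeats with 3 bases between; Isg20 and Ifit2 have no bar in any window.

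Signals below are the processed signal of a probe, in the scanner's arbitrary units. The log2 ratio is the difference, RCCS minus control, after each array was divided by its own 75th percentile (849 for control and 966 for RCCS); -1 is 2-fold lower. Levels of different probes cannot be compared, only the same probe between arrays. The ± after a ratio is the 95% half-width of the spot error that the scanner software assigns, which covers neither cultures nor RNA extraction. All 17 probes were well above background in the control and 16 of them in RCCS as well; over the whole array 3.56% of the probes called in the control were not called in RCCS. Each of the 16 was lower in RCCS by 2-fold or more, against 4.11% of all measured probes. By gene, all 10 members were lower by 2-fold or more, against 3.76% of the 16023 genes measured, and 0 were higher by 2-fold or more, against 3.88%. Ratios below 0 were found for all 10 members and for 61.8% of all genes. At least 4-fold lower were 7 members, against 0.487% of all genes, and at least 8-fold lower 3 members, against 0.106%. Rsad2 lay at the 4-fold cut, at -2.01, and the 4-fold count changes with the processing. The members had been proposed with earlier results of these arrays known, so these counts describe them and are not independent evidence. The median log2 ratio of the members was -2.44 (5.42-fold lower), and that of all measured genes -0.13.

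The MX genes encode dynamin-like GTPases, MX1 in the nucleus and MX2 in the cytoplasm of mouse cells. Many laboratory mouse strains carry defects in them, and RefSeq lists both as transcribed pseudogenes in the C57BL/6J assembly, so a signal here is RNA and says nothing of a working protein. The Mx2 probe gave 2511 in the control and 263 in RCCS, a log2 ratio of -3.44 ± 0.40 (10.9-fold lower). Mx1 was dim, with 150 and 156 on the control array at its probes, and the lowest signal called above background there was 24.2. The first Mx1 probe went to 23.8 on the RCCS array, just above the lowest signal called there (21.2), and its ratio was -2.84 ± 0.67. The second was at 13.6, not well above background. Set to the lowest signal called on the RCCS array (21.2), it would be 8.39-fold lower, a limit that leaves out spot error. The 95% spot-error range of its own log2 ratio ran from -4.72 to -2.70. Both Mx1 probes were low on the RCCS array, but the size of the difference is set by signals at the background. With normexp background correction and quantile normalization, Mx1 was at -1.44. Normexp is a background model, run here with an offset of 50 added to every spot. That offset is larger than the RCCS signals of both Mx1 probes and by itself shrinks the ratios of dim probes.

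The IFIT proteins are RNA- and protein-binding members of 1 family with tetratricopeptide repeats, and their genes lie side by side on chromosome 19 in the RefSeq order Ifit2, Ifit3, Ifit1bl1, Ifit3b, Ifit1bl2, a pseudogene and Ifit1. Ifit3, whose product joins IFIT1 in a complex, had the lowest ratio of the members, -3.56 ± 0.29 (11.8-fold lower). Its first probe went from 5764 to 530 (-3.63) and its second from 802 to 81.7 (-3.48). The second probe is named Ifit3 in the file but carries a cDNA accession and lies 24.0 kb from the first in the coordinates of the file, while RefSeq gives Ifit3 a length of 5.86 kb. It may read a neighbouring copy, and no probe was named Ifit3b, so Ifit3 and its near copy are not told apart. Ifit1 went from 4989 to 927, a ratio of -2.61 ± 0.40 (6.12-fold lower).

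Ifit2, which encodes an IFIT protein linked to inhibition of translation, had the smallest difference of the 3 IFIT members, -1.76 ± 0.34 (3.38-fold lower). With normexp it was at -1.12, and with quantile normalization as well at -1.11. Its probes did not give the same size: 1 went from 148 to 37.5 (-2.17) and the other from 507 to 227 (-1.34), a gap of 0.82 where spot error allows 0.68. Both Ifit2 ratios were closer to 0 than those of both Ifit3 probes, beyond spot error; the lower Ifit2 probe and Ifit1 were not apart beyond it. The gene next to the cluster, Slc16a12, which encodes a transporter of the monocarboxylate family, was higher on the RCCS array, at 1.14, and Ifit1bl2 stayed at background on both arrays.

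Isg20 encodes an exonuclease that cuts single-stranded RNA. Its probes went from 3908 to 399 and from 7016 to 718, and their log2 ratios of -3.48 and -3.47 differed by less than spot error, giving -3.48 ± 0.28 (11.1-fold lower). Rsad2, the gene of viperin, an enzyme that makes a chain-terminating nucleotide, was read by 3 probes. These went from 1535 to 501 (-1.80), from 791 to 221 (-2.02) and from 547 to 135 (-2.21). The file places the ends of the last 2 probes 3039 and 3302 bases apart, so each crosses an intron and reads spliced RNA. The Rsad2 probes differed from each other by at most 0.41, within their spot error, and the gene stood at -2.01 ± 0.23 (4.03-fold lower).

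Bst2, the gene of tetherin, a membrane protein that holds new particles at the cell surface, went from 69394 to 16438, a ratio of -2.26 ± 0.40 (4.80-fold lower). Ifitm3, the entry inhibitor, went from 179503 to 91569, a ratio of -1.16 ± 0.40 (2.23-fold lower). This was the smallest difference among the members, except with normexp, where Ifitm3 was at -1.19 and Ifit2 at -1.12. No non-control spot was saturated on either array. Ifi44 encodes a cytoplasmic protein of the interferon response. Its probe for the RefSeq transcript went from 16606 to 2971 (-2.67 ± 0.40, 6.36-fold lower). Its other probe, built on a cDNA clone and lying 15023 bases away in the file, was near background on both arrays, at 50.5 and 24.9 (-1.20 ± 0.73). The mean of both, -1.94, lies closer to 0 than the bright probe. Of the 5 members with several measured probes, Ifi44 was the 1 whose probes lay more than 1 apart in log2 ratio, against 7.29% of all such genes.

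**Figure D2:**
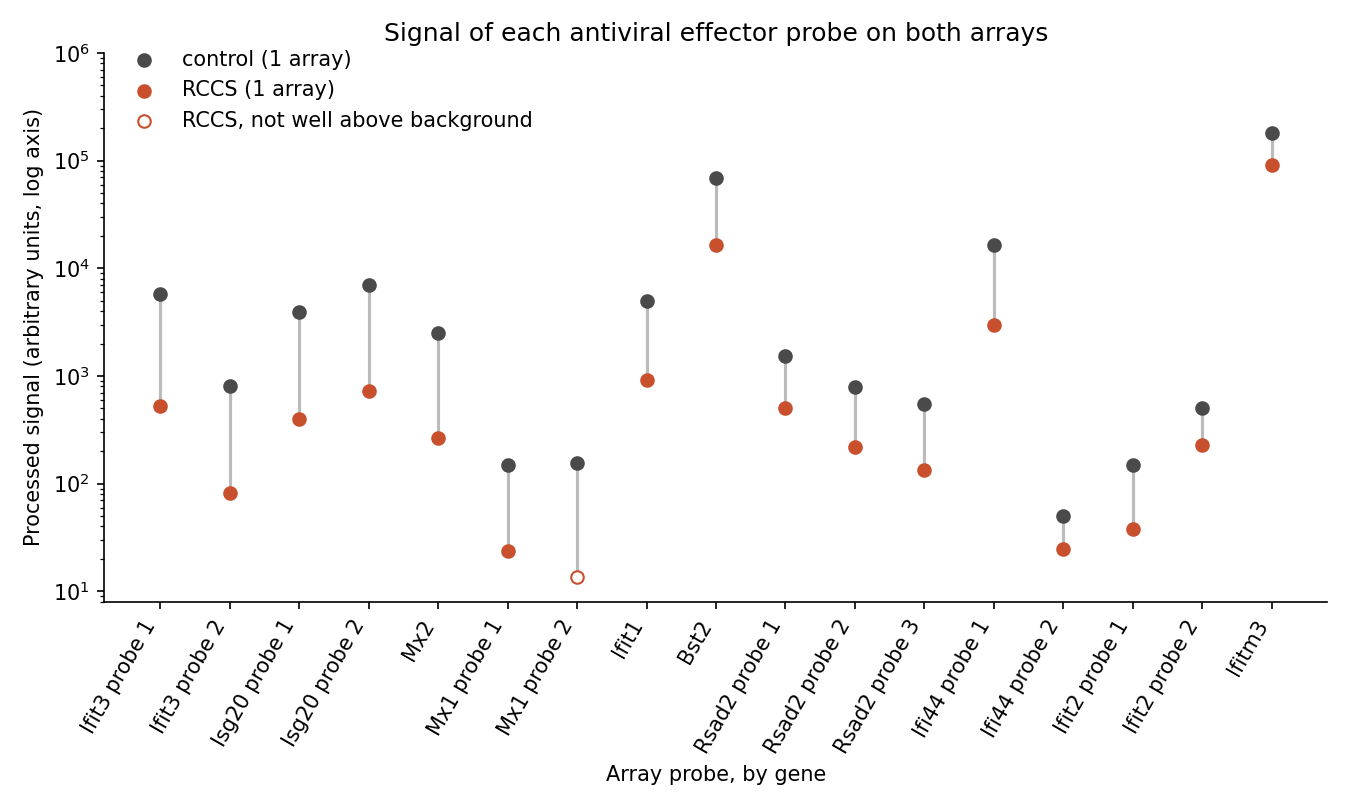
Processed signal of each member probe (y axis, log scale, arbitrary units) on the control array (grey) and the RCCS array (orange), genes ordered by log2 ratio. Each orange point lies below its grey partner, and the open point marks the Mx1 probe that was not well above background on the RCCS array.

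From the lowest ratio upward the order of the members was Ifit3, Isg20, Mx2, Mx1, Ifit1, Bst2, Rsad2, Ifi44, Ifit2 and Ifitm3. Of the 9 steps between neighbours in this order, 1 was larger than the spot error of the step, that from Ifit2 to Ifitm3 (0.60, where spot error allows 0.53). That step did not hold under all processing: with normexp the order of the pair turned, and with the brightest probe of each gene Ifit2 was at -1.34 against -1.16. No neighbours in the list can therefore be firmly ordered. The ends stand apart: Ifit3, Isg20 and Mx2 were each 10.9-fold lower or more, and the 95% spot-error ranges of Ifit3 (-3.85 to -3.26) and Ifitm3 (-1.56 to -0.76) do not meet. Ranked among all 16023 measured genes from the lowest ratio, Ifit3 was at position 8, Isg20 at 10, Mx2 at 11, Mx1 at 19, Ifit1 at 26, Bst2 at 50, Rsad2 at 79, Ifi44 at 91, Ifit2 at 111 and Ifitm3 at 400.

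**Figure D3:**
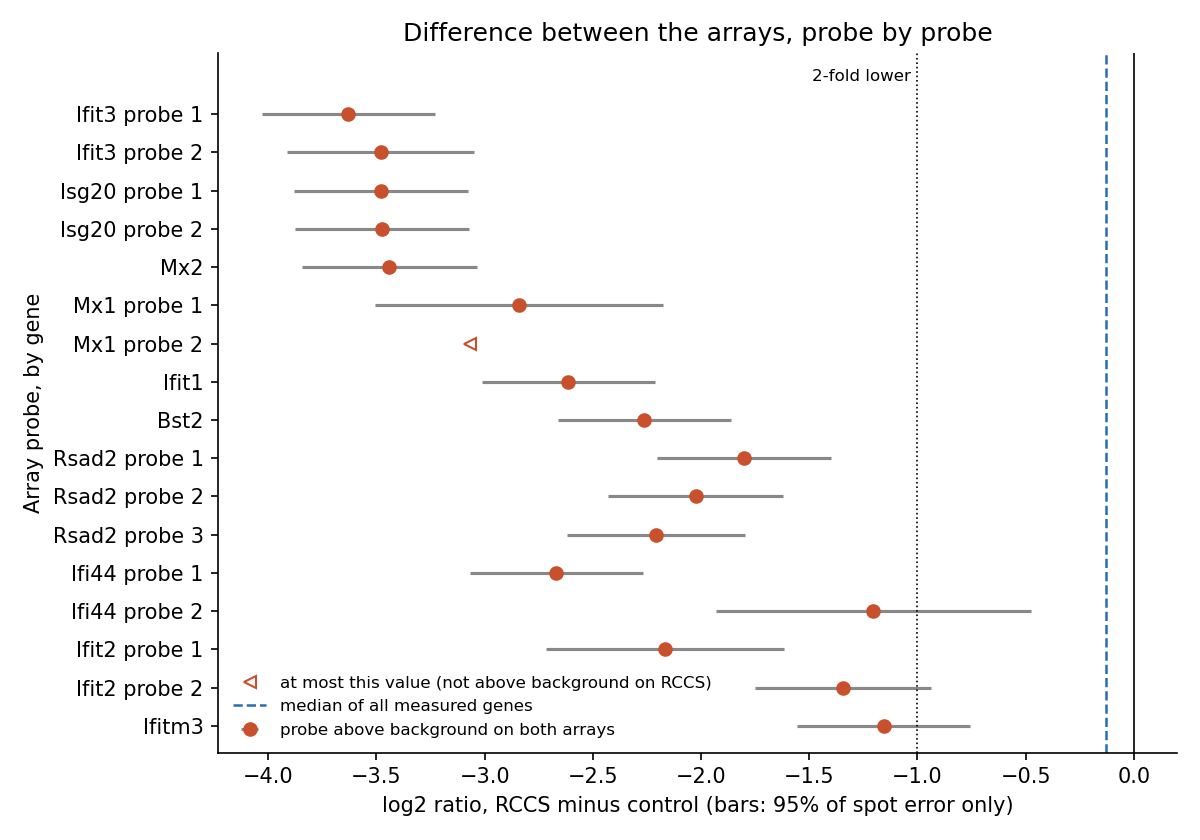
Log2 ratio of each member probe, RCCS minus control (x axis), with bars for 95% of the spot error of the scanner software. The triangle is an upper limit, without spot error, for the Mx1 probe not above background on the RCCS array. The dotted line is 2-fold lower and the dashed line the median of all measured genes, -0.13; the 16 measured probes lie left of the dotted line.

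The nearest relatives and genomic neighbours of the members were less uniform. Of 14 listed, 10 were measured and all 10 had ratios below 0, against 61.8% of all measured genes. The median was -0.84. At least 2-fold lower were 4 and higher 0, against 3.76% and 3.88% of all measured genes. Ifi44l, the paralogue of Ifi44, was at -3.98 ± 0.28, and Cmpk2, a nucleotide kinase gene next to Rsad2, at -3.01 ± 0.29, both lower than the member beside them. Ifi27l2a, which encodes a small interferon-induced membrane protein, was at -1.52. In the IFITM family, Ifitm7 was at -1.24 and Ifitm3 itself at -1.16, followed by Ifitm5 at -0.95, Ifitm6 at -0.73, Ifitm2 at -0.52 and Ifitm1 at -0.28. Ifitm7 came under 2-fold in 3 of 11 alternative ways of processing, and Ifitm1 turned to 0.02 with scaling on the spike-in probes. The probes of Ifi27 lay 2.93 apart, so its mean of -0.05 is not a measure of the gene. IFITM sequences are alike, and their probes may have bound each other's RNA.

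Other antiviral effectors, 32 listed and 28 measured, had 20 genes at least 2-fold lower and 0 higher, with a median of -1.61. The shares over all measured genes were 3.76% lower and 3.88% higher. Beyond Oasl2, Isg15 and Zbp1 at the low end (-4.27, -4.23 and -3.12), Ube2l6, the conjugating enzyme for ISG15, was at -2.86, Oas1g, a sensor of double-stranded RNA, at -2.24 and Usp18, which removes ISG15 and dampens the receptor, at -2.10. Sp110, a nuclear body protein gene, was the 1 measured gene above 0, at 0.13. Eif2ak2, the kinase PKR, was at -0.82 and under 2-fold in all 11 alternatives.

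The genes of interferon signalling did not move as a group. Of 21 listed, 17 were measured, with 5 at least 2-fold lower, 2 higher and a median of -0.30. Of all measured genes, 3.76% were at least 2-fold lower and 3.88% higher. The interferon genes Ifnb1, Ifna2, Ifna4 and Ifng stayed at background on both arrays (signals of 5.2 to 13.0). The receptor genes Ifnar1 and Ifnar2 were at 0.53 ± 0.40 and 0.31 ± 0.28, and Ifngr1 and Ifngr2 at -0.45 ± 0.40 and -0.30 ± 0.28. The kinase genes Jak1, Jak2 and Tyk2 were at 0.66, 1.05 and 0.07, the last within its spot error of 0.40. Ifnar1, Ifnar2 and the kinase genes stayed above 0 in every alternative run, though all runs reprocess the same arrays. With its brightest probe Ifnar2 came to 0.09. Among the transcription factor genes, Stat2 was at -1.29, Irf9 at -0.97, Irf1 at -1.12 and Irf7, itself induced by interferon, at -3.12. Socs1, a feedback inhibitor, was at -1.15. Irf8, a factor of macrophage identity, was at 1.14.

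Of 16 nucleic acid sensor and adaptor genes, 14 were measured, with 4 at least 2-fold lower, 2 higher and a median of -0.08. Beside these counts, 3.76% of all measured genes were lower by as much and 3.88% higher. The 4 lower ones were Ddx58 (RIG-I) at -2.76 over probes 1.05 apart, Dhx58 (LGP2) at -2.47, Ifih1 (MDA5) at -1.65 and Ifi204 at -1.45, all known to be induced by interferon. Aim2, a DNA sensor gene that interferon also induces, went the other way. It was at background in the control (9.27) and at 57.9 in RCCS. With the control set to the lowest signal called there (24.2), Aim2 was 2.11-fold higher, a limit that leaves out spot error. The Toll-like receptor genes Tlr4 and Tlr7 were at 1.59 and 1.29; with dim probes kept, Tlr4 came to 0.22. The adaptor Ticam1 was at 0.44, Tlr3 at 0.24 and the kinase gene Tbk1 at 0.08. The DNA sensor gene Mb21d1 stood at 0.56, but its probes lay 3.31 apart.

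**Figure D4:**
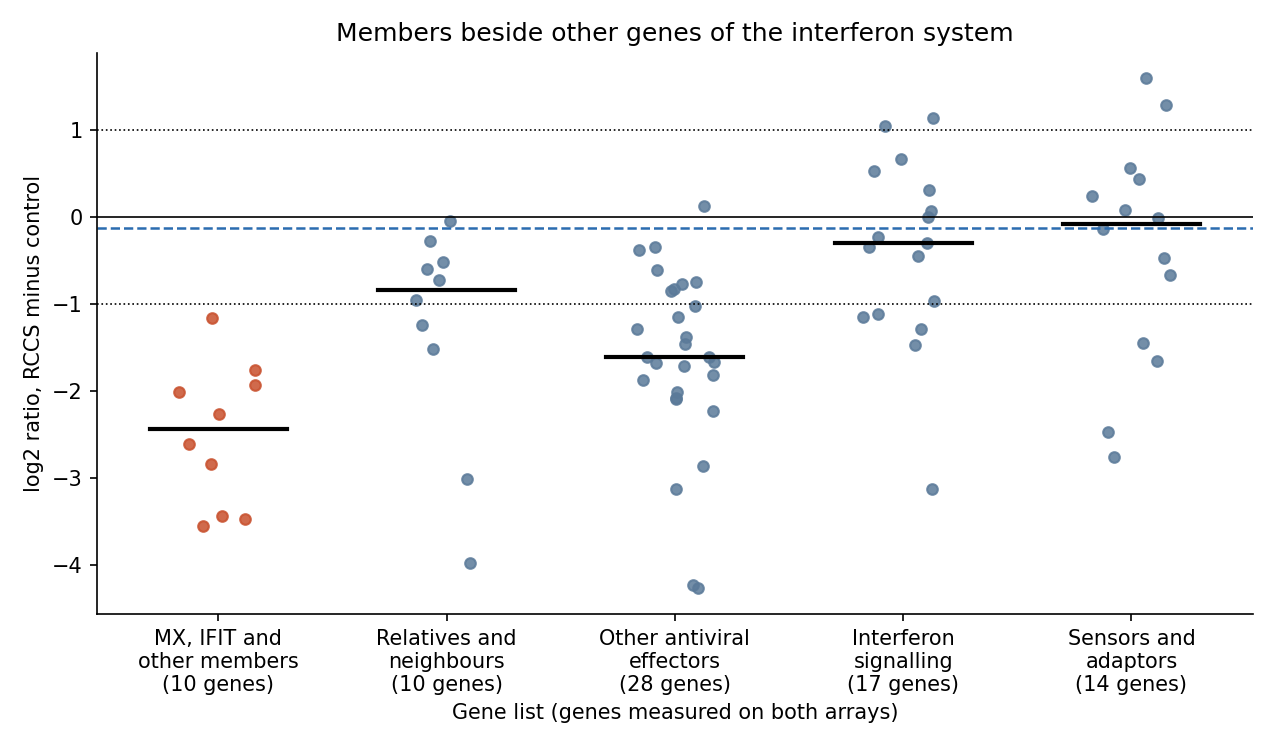
Log2 ratio, RCCS minus control (y axis), of every measured gene in the members and 4 lists of the interferon system; each point is 1 gene, black bars are list medians, the dashed line is the median of all measured genes and dotted lines mark 2-fold. The members (median -2.44) all lie below -1, while the signalling and sensor lists have points above 1.

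Over both arrays, 57.5% (control) and 60.6% (RCCS) of probes were called above background. All 10 macrophage markers were above background on both arrays, with a summed signal of 939 and 989 in units of each array's 75th percentile, as the label of the cells asks. Of 10 osteoclast markers, 9 and 10 were above background, with sums of 20.2 and 19.3. Of the 9 measured on both arrays, 7 had ratios below 0, against 61.8% of all genes, and 2 above, with a median of -0.57. Dcstamp, a cell fusion gene, was at -1.62, Atp6v0d2 at -0.96 and Ocstamp at -0.95. Mmp9 was at -0.66, Nfatc1 at -0.57, Oscar at -0.43 and Itgb3 at -0.40. Ctsk, the gene of cathepsin K, was at 1.22, and Acp5 at 0.06 ± 0.40. Calcr, the calcitonin receptor gene, was dim at 14.5 and 23.6. Several markers of other cells were also called above background. Sums, to be read between arrays and not between lists, were 1.21 and 0.917 for T cells (4 of 7 above background on each array), 0.272 and 0.275 for B cells (3 and 2 of 5), 0.118 and 0.103 for neutrophils (1 and 1 of 4 on the array), 0.239 and 0.671 for fibroblasts (2 and 4 of 6) and 0.340 and 0.168 for epithelium (4 and 3 of 5). The fibroblast sum in RCCS was mostly Dcn, which was at 462 there and at background in the control (15.2). The part of these marker differences in the members' ratios was not tested. In bulk RNA, fewer cells that express a gene and less RNA per cell cannot be told apart.

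**Figure D5:**
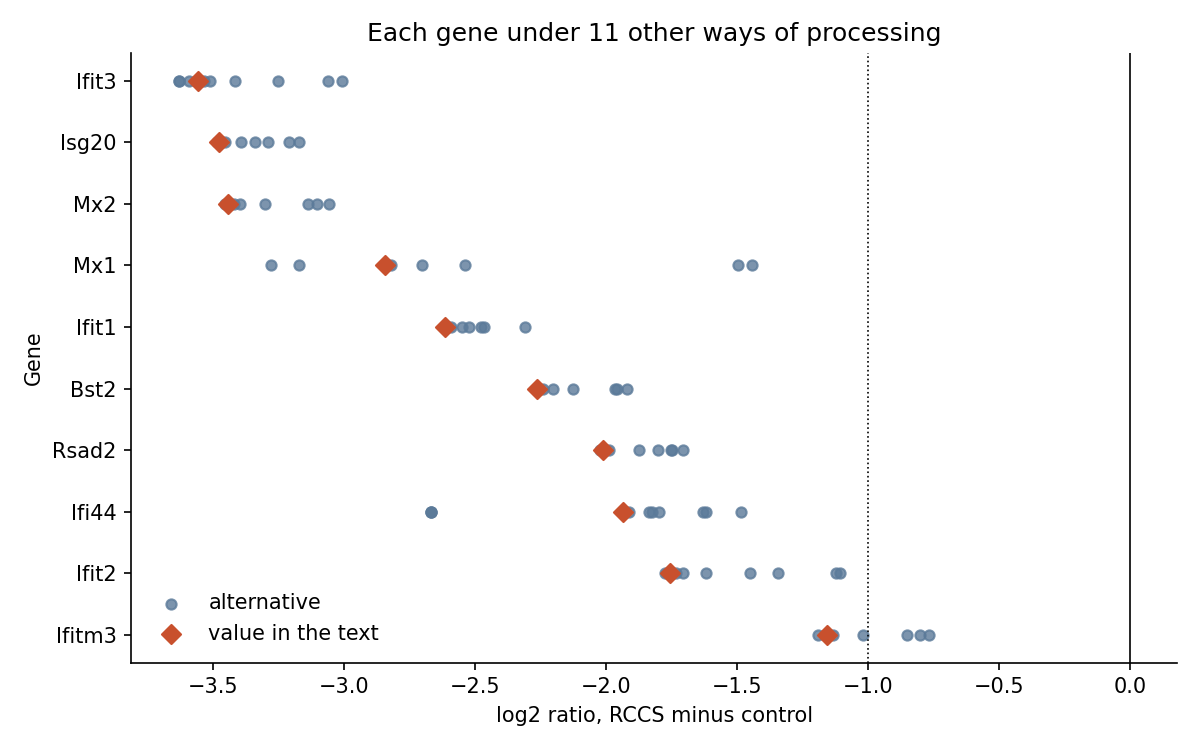
Log2 ratio of each member, RCCS minus control (x axis), as given in the text (orange diamonds) and under 11 other ways of processing the arrays (blue points). All points lie below 0; for Ifitm3, 3 points lie between -1 and 0, and Mx1 and Ifi44 spread the most.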

How the data were processed

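RNA of 1 control and 1 RCCS sample was hybridised to Agilent whole mouse genome arrays in 1 colour. Per the file headers, both arrays lay on 1 slide and were scanned together, and Agilent Feature Extraction 9.5.3.1 made the deposited intensity values, with spatial and multiplicative detrending switched on and local background correction off. The authors' deposited table holds a ratio per probe, which on comparison is the processed signal divided by 849 and 964, with a lowest value of 0.01.

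Outlier spots (211, called on either array) were left out, spots of a probe averaged, and each array divided by its 75th percentile before log2. A probe counted as measured where at least 50% of its spots were well above background on both arrays; a gene took the mean of its measured probes. Ratios of bright probes printed repeatedly had a median SD of 0.04 over 117 probes, and those of dim ones 0.26 over 33 probes. Symbols came from RefSeq accessions (GRCm38.p6) for 22950 probes and from the files otherwise; no source used here names the build of the array coordinates. Herc6 was found under its older name Herc5. Named are all 10 members, the 6 measured genes of each list with the largest absolute ratio and those of opposite direction, and the main interferon, receptor and transcription factor genes, of which some are not reported here; others were named after their values were seen. Members and lists were chosen with earlier results of these data known. Scripts used Python 3.11.15 and limma 3.58.1 and were tested on simulated data.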

Additional observations from a re-analysis of the deposited data

How the results depend on the processing

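With 1 array per group no replicate could be left out. Of 110 values of the 10 members under 11 alternatives, 76 moved by less than 1 SD of spot error, 34 moved by more and 0 changed sign. Part of the 76 could not move, since settings that only choose probes often kept the same probes of a member. The authors' deposited table holds the same signal over nearly the same divisor. These counts therefore overstate how stable the values are to processing. All 10 members were at least 2-fold lower in 8 of the alternatives; Ifitm3 was under 2-fold in the other 3, scaling on the spike-in probes, quantile normalization (-0.77, its nearest to 0) and normexp with quantile normalization, which leave 9 members. The members' median of -2.44 became -2.13 with spike-in scaling, -1.98 with normexp and -1.83 with normexp and quantile normalization. The 4 relatives at least 2-fold lower were 7 at 1.5-fold and 2 at 3-fold. The 5 lower signalling genes were 2 with spike-in scaling, 3 with normexp and quantile normalization and 1 at 3-fold. Using only probes with a RefSeq accession, added after the data were seen, moved Ifi44 to -2.67. The 603 genes lower and 622 higher overall (50.8% higher) became 262 and 1190 with spike-in scaling (82.0%), 416 and 833 with the 75th percentile of measured probes (66.7%), 248 and 415 with normexp and quantile normalization (62.6%), 346 and 364 with normexp and 1804 and 1607 without a filter on dim probes. These scalings moved the median of all genes by up to 0.305, and 1 (no filter) by -0.119. The cause of these shifts was not tested. Signal over background limits Mx1, the second Ifi44 probe and 1 Ifit2 probe.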
